A study of Mus musculus with 25 samples.

Results

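The voltage-gated calcium and sodium channel genes of 2 mouse islet cell lines were examined, with the open chromatin around them. Genes were taken by symbol alone, every Cacn gene and every numbered Scn gene of the a or b class, which gave 41 entries of the 24439 genes in the RNA-seq tables (40 symbols, since Scn8a is listed under 2 identifiers). Of these entries 26 were calcium channel genes and 15 sodium channel genes. By the same rule 151 of the 65053 consensus ATAC-seq peaks had such a gene as their nearest gene, and they fell near 33 of the 40 genes.

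A voltage-gated calcium channel is built round a pore-forming α1 subunit that opens when the membrane depolarizes, and its current type (L, P/Q, N, R or T) follows from which α1 gene is used. The β and α2δ subunits carry the pore to the membrane and tune its gating, and several of the γ genes are better known for their work on glutamate receptors. Voltage-gated sodium channels have a single pore protein and small β subunits. In islet cells both families shape the action potentials that precede calcium entry and the release of insulin or glucagon.

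The lines were alpha TC1 clone 6 (αTC1), a clonal glucagon-producing line, and beta-TC-6 (βTC6), an insulin-producing line, both derived from islet tumours of transgenic mice, bought from a repository and grown untreated in media that differed in serum and supplements, so that line and medium cannot be told apart. RNA-seq covered 3 libraries of each line, ATAC-seq covered 5 libraries of each, and 9 further ATAC-seq libraries came from counted mixtures of the lines in steps of 10%. No source says whether replicates were separate cultures, so p-values measure the spread between these libraries, which may be technical. The question was how the lines differ in their regulatory landscape, taken here for the channels that set excitability.

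Expected counts over genes ranged from 21795367 to 24857674 per αTC1 library, and per βTC6 library from 24316436 to 25876765. Reads in peaks ranged from 6903416 to 8300868 per αTC1 library, from 4397851 to 10374903 per βTC6 library and from 5277983 to 7294832 per mixture. Gcg, the glucagon gene, averaged 12929 FPKM (fragments per kilobase of transcript, scaled to sequencing depth) in αTC1 and 229 in βTC6. Ins2, an insulin gene, averaged 0.34 and 30081. The beta-cell factor Pdx1 was at 0 in every αTC1 library. Of the alpha list, Ttr did not differ past the test (835 and 1116 FPKM, adjusted p = 0.215). Hormones of other islet cells were higher in βTC6 (Sst 0 and 256 FPKM, Ppy 0.0933 and 26.0), while Hhex of the delta list stayed at or under 0.13 FPKM in every library. Cd68, of the immune list, was at 1.08 FPKM in αTC1 and 2.11 in βTC6 (adjusted p = 0.00136), while Ptprc of the same list stayed at or under 0.02. Sox9, on the ductal list, averaged 4.24 FPKM in αTC1 and 0 in βTC6, while Krt19 of that list stayed at or under 0.08. The listed acinar, endothelial and mesenchymal markers stayed at or under 0.63 FPKM in all libraries. The part of these differences in the channel results was not tested. Genes and peaks of some chromosomes differed as a whole between the lines: the median log2 fold change of βTC6 against αTC1 was 1.20 over genes and 1.54 over peaks of chromosome 14, and -0.76 and -0.79 for chromosome 6. These medians are given again beside the channel genes concerned.

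Of the 41 entries, 19 reached an FPKM of 1 in all libraries of either line and were tested with edgeR on all 12195 genes that did. A gene passed the test at an adjusted p below 0.05, and was called when its absolute log2 fold change also exceeded 2. Among the 19, 11 were higher in βTC6 and 7 in αTC1, and 1 did not pass, against 38.7% and 36.0% of all tested genes in those directions. Called were 8 in βTC6 (all genes 10.2%) and 1 in αTC1 (all genes 4.08%). For absolute log2 fold changes, the 19 had a median of 1.86 and all tested genes one of 0.61. In these bulk libraries, fewer cells with a transcript and less of it per cell cannot be told apart. A gene expressed in a single line enters through that line and must differ, and 8 of these entries were below 1 FPKM in every library of the other line (Cacna1a, Cacna1b, Cacna1h, Cacna1i, Cacna2d3, Cacnb1, Cacng4 and Scn3b), so these counts describe the 19 and not the family as a whole. With spike-in scaling 3 entries were higher in αTC1, and without the filter, over 19570 genes, 18 of 40 were higher in βTC6. The shares over all genes given above belong to the main fit, so they do not apply to these alternative counts.

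**Figure D1:**
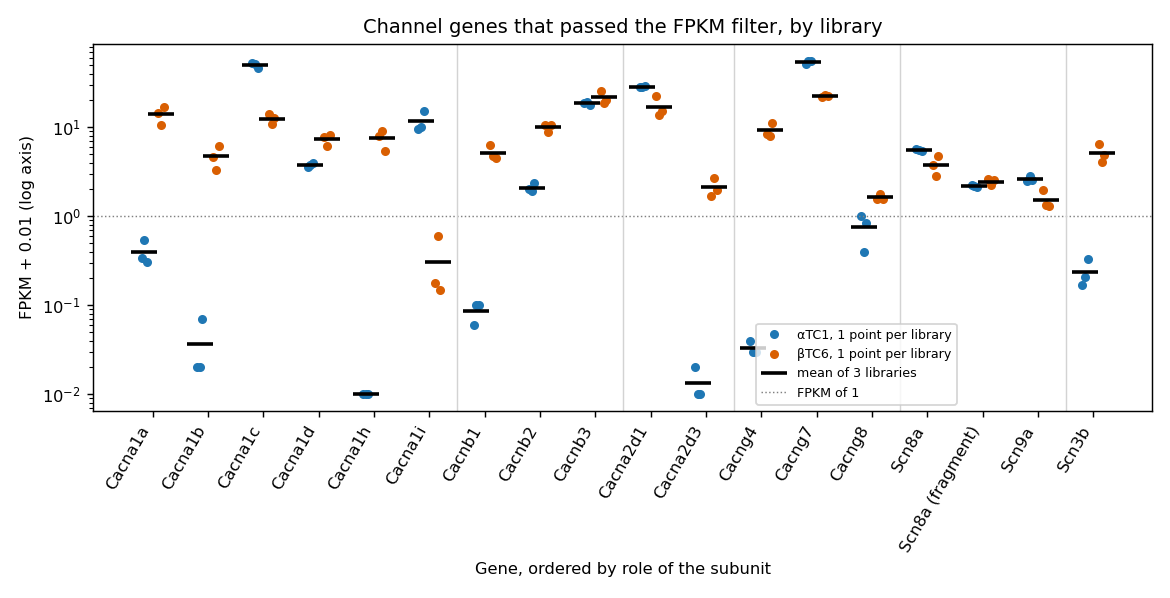
FPKM of 18 of the tested channel entries in each RNA-seq library, plotted as FPKM + 0.01 on a log axis, with genes ordered by the role of the subunit; points are libraries (3 per line), black bars are means and the dotted line is an FPKM of 1. Cacna1h, Cacna1b, Cacna1a, Cacna2d3, Cacnb1, Cacng4 and Scn3b were close to the bottom of the axis or well under 1 in αTC1, and Cacna1i was the gene under 1 in βTC6.

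The pore subunits of the calcium channels differed most in kind. Both lines transcribed the L-type genes Cacna1c and Cacna1d, whose channels carry much of the calcium current of islet cells, and each line added its own T-type gene, a low-threshold channel that opens near the resting potential. Cacna1i was the T-type gene of αTC1 and Cacna1h that of βTC6. The P/Q-type gene Cacna1a and the N-type gene Cacna1b, high-threshold channels best known from nerve terminals, were βTC6 genes.

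Cacna1c stood at 52.68, 51.20 and 46.66 FPKM in αTC1 and at 14.06, 10.85 and 12.68 in βTC6. The groups did not overlap, and its log2 fold change was -1.86 (SE 0.09, adjusted p = 1.67e-07). Cacna1c lies on chromosome 6, and with the median of that chromosome's genes subtracted the difference was -1.10. Cacna1d went the other way, at 3.57, 3.77 and 3.98 FPKM in αTC1 and 7.70, 6.10 and 8.23 in βTC6. Its libraries were also separate (log2 fold change 1.0, SE 0.11, adjusted p = 3.71e-05), but the gene lies on chromosome 14 and was 0.20 below the median log2 fold change of that chromosome's genes (-0.20). With spike-in scaling the log2 fold change was 0.96 and did not pass (adjusted p = 0.07).

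Cacna1a was read at 0.33, 0.53 and 0.30 FPKM in αTC1 against 14.58, 10.47 and 16.91 in βTC6. The difference was 59.3-fold (log2 fold change 5.89, SE 0.24, adjusted p = 7.15e-08). Cacna1b had 2, 3 and 2 expected counts in the αTC1 libraries and 835, 635 and 897 in those of βTC6, where it reached 4.68, 3.34 and 6.11 FPKM. With so few αTC1 counts the ratio of summed counts per library size was 316, with a 95% counting interval from 153 to 786 (exact binomial). Both genes were thus present in every βTC6 library at a level that no αTC1 library approached.

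Cacna1h had 0 counts in all 3 αTC1 libraries, and 1341, 1411 and 889 in βTC6 (8.06, 9.12 and 5.39 FPKM). Taking 3 counts per library as the floor, it was at least 378-fold higher in βTC6 (adjusted p = 4.55e-07). Cacna1i showed the opposite pattern, at 9.64, 9.99 and 15.41 FPKM in αTC1 and at 0.17, 0.59 and 0.14 in βTC6. This made it the single channel gene called in αTC1 (49.9-fold, log2 fold change -5.64, SE 0.29, adjusted p = 2.82e-07). The lowest αTC1 library was well above the highest βTC6 library.

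FPKM is per transcript length, so levels of different genes can be set side by side within a library. The 10 calcium pore genes summed to 66.2 ± 0.529 FPKM in αTC1 and 47.0 ± 5.21 in βTC6 (SD, n = 3). L-type genes made up 84.7%, 83.8% and 76.0% of this sum in αTC1 and 43.8%, 41.8% and 41.9% in βTC6. P/Q-type took 0.585% ± 0.194 and 29.5% ± 4.08, and N-type 0.0401% ± 0.0433 and 9.90% ± 2.06. The T-type share was 17.7% ± 4.81 in αTC1 and 17.8% ± 6.35 in βTC6 (exact permutation p = 1.0, 2-sided), made up of Cacna1i in the former (17.6% ± 4.78) and of Cacna1h in the latter (16.4% ± 5.76). With 3 libraries against 3 the exact test cannot go below 0.1, the value reached by the L, P/Q and N shares and by each T-type gene, so the shares are a description. Single αTC1 libraries had T-type shares of 14.6% to 23.2%, and those of βTC6 11.8% to 24.5%.

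**Figure D2:**
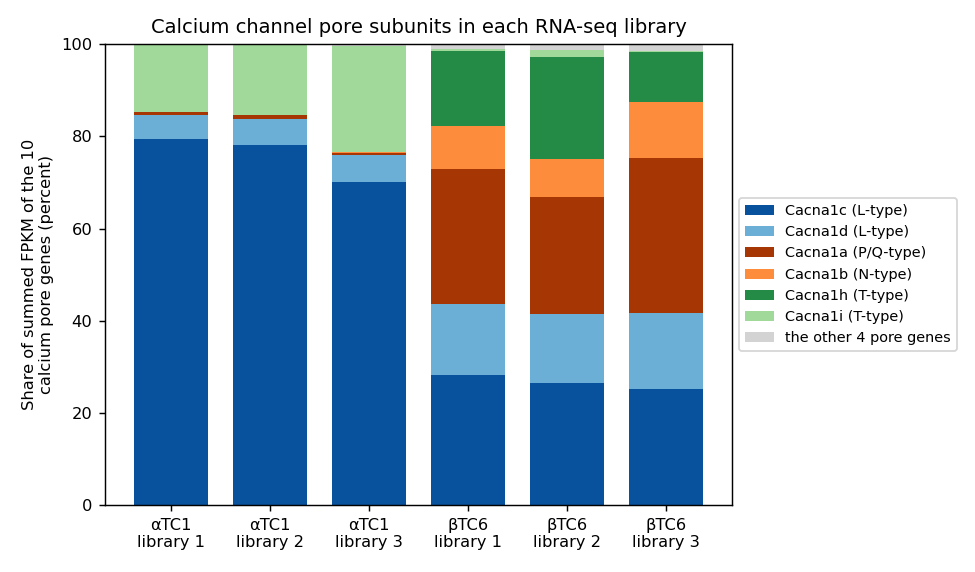
Stacked bars of the share of each calcium channel pore gene in the summed FPKM of the 10 pore genes, in percent, for the 3 αTC1 and 3 βTC6 RNA-seq libraries. Cacna1c alone filled 70.0% to 79.3% of the αTC1 bars and 25.2% to 28.2% of the βTC6 bars, where Cacna1a, Cacna1b and Cacna1h fill much of the rest.

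The other 4 pore genes did not pass the filter. Cacna1g, the remaining T-type gene, was at 0.02 to 0.06 FPKM in αTC1 and 0.32 to 0.39 in βTC6. Cacna1e, the R-type gene often studied in beta cells, was at 0.08 to 0.14 and 0.04 to 0.25 FPKM, so that the groups overlapped. The L-type genes of muscle and retina, Cacna1s and Cacna1f, reached at most 0.01 and 0.18 FPKM.

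Of the β subunit genes, which bind the pore from the cytoplasmic side, Cacnb1 and Cacnb2 were called in βTC6, and Cacnb3 passed only narrowly. Cacnb1 was at 0.05, 0.09 and 0.09 FPKM in αTC1 and 6.34, 4.70 and 4.50 in βTC6 (84.0-fold, log2 fold change 6.39, SE 0.31, adjusted p = 1.9e-07). Cacnb2 was at 2.04, 1.89 and 2.35 FPKM in αTC1 and 10.61, 8.78 and 10.59 in βTC6 (log2 fold change 2.30, SE 0.13, adjusted p = 5.1e-07). Cacnb3 was the most abundant β gene of both lines, at 18.89, 19.04 and 17.79 FPKM and at 25.71, 18.84 and 20.36, and its groups overlapped. Its log2 fold change of 0.28 (SE 0.11, adjusted p = 0.0447) did not pass when any αTC1 library or βTC6 replicate 1 was left out (adjusted p from 0.0785 to 0.18), without the expression filter (adjusted p = 0.098) or with spike-in scaling (adjusted p = 0.66). Cacnb3 made up 89.4% ± 1.49 of the summed β subunit FPKM in αTC1 and 57.9% ± 1.54 in βTC6. Cacnb4 was below the filter, at 0.02 to 0.06 FPKM in the αTC1 libraries and 0.24 to 0.62 in the others.

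The α2δ subunits, extracellular proteins that raise channel density at the membrane, were dominated by Cacna2d1 in both lines. It stood at 28.60, 28.56 and 28.77 FPKM in αTC1 and 22.53, 13.62 and 15.15 in βTC6. On counts the log2 fold change was -0.37 (SE 0.13, adjusted p = 0.0306), and it did not pass without any αTC1 library, without βTC6 replicate 2 or 3 (adjusted p from 0.0526 to 0.1) or with spike-in scaling (adjusted p = 0.616). Cacna2d3 was a βTC6 gene. It had 1, 0 and 0 counts in αTC1 and 163, 261 and 178 in βTC6 (1.70, 2.69 and 1.94 FPKM), a ratio of 562 with a counting interval from 100 to 22200. Cacna2d3 lies on chromosome 14, and its fitted log2 fold change less that chromosome's median was 7.54. Cacna2d2 and Cacna2d4 stayed at or under 0.29 FPKM.

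Of the 8 γ genes, 3 were tested. Cacng7, which also binds AMPA-type glutamate receptors, was among the most abundant channel-related transcripts, at 51.15, 55.20 and 56.00 FPKM in αTC1 and 21.78, 22.96 and 22.47 in βTC6 (log2 fold change -1.22, SE 0.07, adjusted p = 7.78e-07). Cacng4, of the same receptor-binding group, had 2 counts in each αTC1 library and 8.34, 7.94 and 11.30 FPKM in βTC6, a ratio of 372 with a counting interval from 171 to 1010. Cacng8 was weak, at 1.01, 0.39 and 0.82 FPKM in αTC1 and 1.54, 1.78 and 1.55 in βTC6, with 6 to 29 counts per library. Its log2 fold change of 1.19 (SE 0.35, adjusted p = 0.0128) did not pass without αTC1 replicate 2 (adjusted p = 0.0526), with DESeq2 (adjusted p = 0.0517) or with spike-in scaling (adjusted p = 0.111). Below the filter, Cacng3 had 0 counts in αTC1 and 1.16, 0.94 and 2.37 FPKM in βTC6, Cacng5 had 0.04 to 0.49 FPKM in αTC1 and 0.87 to 1.73 in βTC6, and Cacng1, Cacng2 and Cacng6 did not exceed 0.03 FPKM.

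The sodium channels kept the same leading pores in both lines. Scn8a (Nav1.6), a pore widely used in neurons, was at 5.64, 5.59 and 5.47 FPKM in αTC1 and 3.73, 2.86 and 4.74 in βTC6 (log2 fold change -0.53, SE 0.14, adjusted p = 0.00881). Scn9a (Nav1.7), a pore known from sensory neurons and islet cells, was at 2.51, 2.81 and 2.57 FPKM and at 1.98, 1.34 and 1.28 (log2 fold change -0.75, SE 0.19, adjusted p = 0.00548). In neither gene did the lines overlap, although with spike-in scaling neither passed (log2 fold change -0.60, adjusted p = 0.307 for Scn8a, and -0.69, adjusted p = 0.255 for Scn9a). A second Scn8a identifier, annotated upstream of the main one, had 52 to 70 counts per library and did not pass (log2 fold change 0.22, SE 0.19, adjusted p = 0.319), and how reads were split between the 2 identifiers is uncertain.

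Both identifiers of Scn8a together held 69.0% ± 3.75 of the summed sodium pore FPKM in αTC1 and 64.4% ± 6.91 in βTC6 (exact permutation p = 0.5), and Scn9a held 23.4% ± 1.26 and 15.9% ± 3.30 (exact permutation p = 0.1, the smallest possible). Of the 8 sodium pore genes below the filter, Scn3a was the highest, at 0.13 to 0.87 FPKM in αTC1 and 0.26 to 1.50 in βTC6. Scn1a ran from 0.04 to 0.14 and from 0.26 to 0.64 FPKM, and Scn2a1 from 0.15 to 0.37 and from 0.32 to 0.63. The muscle pore Scn4a and the pores Scn7a, Scn10a and Scn11a were at or under 0.13 FPKM in every library.

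Sodium β subunits are small membrane proteins that modulate the pore. Scn3b was at 0.16, 0.20 and 0.32 FPKM in αTC1 and 6.44, 4.11 and 4.92 in βTC6 (22.2-fold, log2 fold change 4.47, SE 0.24, adjusted p = 3.81e-07). Its highest αTC1 library was far below its lowest βTC6 library. Scn2b, at 0.13 to 0.26 FPKM in αTC1, was at or under 0.01 in βTC6, and Scn4b was at or under 0.01 throughout.

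Partner genes, among them those of proteins that bind these channels, were looked up from a list of 28. The list also held the separate leak channel Nalcn, its auxiliary genes and the repressor Rest, and 20 of its genes were tested. In βTC6 7 were higher and in αTC1 9, and 4 did not pass (of all genes tested, 38.7% and 36.0% were higher). Of the 20, 5 were called in βTC6 and 1 in αTC1, against 10.2% and 4.08% of all genes tested. The RGK proteins Gem and Rem2, small GTPase-like proteins that lower calcium current through the β subunit, were at 1.41, 1.95 and 0.64 FPKM in αTC1 against 12.22, 18.09 and 25.31 in βTC6 for Gem (log2 fold change 3.86, SE 0.38, adjusted p = 1.55e-05), and at 0.08 to 0.19 against 2.78 to 3.31 FPKM for Rem2 (log2 fold change 5.15, SE 0.35). Stac2, an adaptor that holds L-type channels in an inactivation-resistant state, was at 33.95, 36.63 and 40.88 FPKM in αTC1 and 2.24, 3.87 and 3.22 in βTC6 (log2 fold change -3.54, SE 0.18, adjusted p = 2.77e-07). It was the single partner called in αTC1.

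Fgf14, an intracellular fibroblast growth factor homologue that binds sodium channel tails, had 0, 1 and 0 counts in αTC1 and 7.35, 6.53 and 4.96 FPKM in βTC6. The leak channel Nalcn was at 0.03 to 0.08 and 1.38 to 1.81 FPKM (log2 fold change 5.19, SE 0.27), while of its auxiliary genes Fam155a was higher in βTC6 (4.94 and 10.7 FPKM, log2 fold change 1.19, SE 0.12, adjusted p = 1.59e-05), Unc80 was higher in αTC1 (log2 fold change -1.13, SE 0.16) and Unc79 did not pass. Ank3, the anchor of sodium channels at the axon initial segment of neurons, was higher in αTC1 (log2 fold change -1.27, SE 0.18). Rem2, Erc2, Nalcn and Fgf14, 4 of the 5 partners called in βTC6, lie on chromosome 14, and leaving out chromosome 14 took the partners higher in βTC6 from 7 to 3. With the median of that chromosome's genes subtracted, the log2 fold change was 8.92 for Fgf14, 4.0 for Nalcn, 3.95 for Rem2 and 1.1 for Erc2. Calmodulins are calcium sensors of these channels, of which Calm2 did not pass and Calm3 had a log2 fold change of -0.30 (SE 0.10, adjusted p = 0.0186). Rest, a repressor of neuronal genes, was not tested and reached 0.01 FPKM in αTC1 and 0.31 to 0.37 in βTC6.

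ATAC-seq reads mark DNA that a transposase can reach, and each peak is given as a TMM-normalized read count per library. To show the sequence of channel peaks that differed between the lines, the 200 bases at the centre of 6 of them are printed from the mm9 plus strand. They are the start-site peaks of Cacna1a, Cacna1h and Scn3b, more open in βTC6, then the Cacna1i peak nearest to its start site, the Cacna2d2 intron peak and the Scn10a intron peak, more open in αTC1. Capitals mark exact matches on either strand to CAGCTG (an E-box), TAATTA (a homeodomain core), TGTTTAC (a forkhead site) or CAGCACC (part of the REST element), none of which overlapped another in these windows.
Cacna1a chr8:86938330-86938529: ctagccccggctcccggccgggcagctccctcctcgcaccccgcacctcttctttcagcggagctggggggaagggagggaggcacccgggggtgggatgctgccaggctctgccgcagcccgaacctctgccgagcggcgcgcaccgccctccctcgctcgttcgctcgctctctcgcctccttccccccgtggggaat
Cacna1h chr17:25570463-25570662: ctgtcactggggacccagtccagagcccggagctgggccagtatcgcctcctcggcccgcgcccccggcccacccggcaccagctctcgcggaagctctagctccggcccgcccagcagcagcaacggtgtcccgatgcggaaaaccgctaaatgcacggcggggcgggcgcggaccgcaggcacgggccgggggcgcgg
Scn3b chr9:40077005-40077204: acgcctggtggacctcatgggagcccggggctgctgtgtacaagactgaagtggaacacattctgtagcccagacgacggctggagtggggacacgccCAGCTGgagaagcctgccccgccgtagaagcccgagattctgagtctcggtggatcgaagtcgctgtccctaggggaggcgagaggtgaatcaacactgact
Cacna1i chr15:80194349-80194548: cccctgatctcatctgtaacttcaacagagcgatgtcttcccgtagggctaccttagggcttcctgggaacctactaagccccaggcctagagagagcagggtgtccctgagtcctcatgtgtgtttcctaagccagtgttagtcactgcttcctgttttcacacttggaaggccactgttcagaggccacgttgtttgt
Cacna2d2 chr9:107359094-107359293: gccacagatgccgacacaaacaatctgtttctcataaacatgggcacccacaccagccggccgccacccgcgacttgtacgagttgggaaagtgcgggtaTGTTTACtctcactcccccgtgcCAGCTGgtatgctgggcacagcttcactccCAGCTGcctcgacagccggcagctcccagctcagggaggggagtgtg
Scn10a chr9:119562879-119563078: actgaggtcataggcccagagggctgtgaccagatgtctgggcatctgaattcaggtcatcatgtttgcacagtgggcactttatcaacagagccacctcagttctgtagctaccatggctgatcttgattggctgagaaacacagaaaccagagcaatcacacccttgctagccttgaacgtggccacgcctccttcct
The Scn3b window held CAGCTG, the Cacna2d2 window CAGCTG at 2 places and TGTTTAC, and the other 4 windows none of the motifs. Start-site windows were rich in G and C, at 73.5% for Cacna1a, 75.0% for Cacna1h and 61.0% for Scn3b, against a median of 48.5% over all peaks.

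In windows of this length CAGCTG was found in 24 of the 151 channel peaks (15.9%) and in 17.2% of all peaks. TAATTA was found in 10 (6.62%, all peaks 6.92%), TGTTTAC in 9 (5.96%, all peaks 6.32%) and CAGCACC in 4 (2.65%, all peaks 5.0%). These counts describe letters in a fixed window and say nothing of a factor.

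By limma at an adjusted p below 0.05, 74 of the 151 peaks had more reads in βTC6, 47 had more in αTC1 and 30 did not pass, against 39.9% and 38.1% of all peaks in those directions. DA peaks with an absolute log2 fold change over 2 numbered 21 in βTC6 (all peaks 12.9%) and 7 in αTC1 (all peaks 5.38%). The share in βTC6 by the first rule was above the background and that in αTC1 below it, and the called shares were close to the background. With edgeR on recovered reads 38 and 13 were called, and with a pseudocount of 5 it was 5 and 1. Leaving out the peaks of chromosome 14 gave 58 and 45 of 133 peaks, with 15 and 7 called. The shares over all peaks above are those of the main fit on every chromosome, so they do not apply to these alternative counts. Peaks under 2 kb from a start site numbered 26 (17.2%, all peaks 22.4%), of which 13 passed towards βTC6 and 5 towards αTC1, where over all 14581 such peaks 3407 and 7625 did. Of the called peaks, 18 of 21 in βTC6 and 7 of 7 in αTC1 were distal, as were 7605 of 8409 and 3296 of 3502 over all called peaks.

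Start-site peaks of Cacna1a, Cacna1b and Cacna1h were more open in βTC6, the line with more of their RNA. The Cacna1a peak (chr8:86938006-86938854, mm9, in an intron of the annotated gene just upstream of a start site) held 1.12 to 2.95 normalized reads in the 5 αTC1 libraries, with a median of 2.17, and 14.8 to 17.1 in βTC6, with a median of 15.5 (log2 fold change 2.47, SE 0.20, adjusted p = 8.38e-10). The Cacna1b peak (chr2:24617612-24619090, over the first exon) held 1.95 to 4.23 in αTC1 and 16.7 to 32.4 in βTC6 (log2 fold change 2.93, SE 0.20, adjusted p = 7.18e-11). At Cacna1h the start-site peak (chr17:25569894-25571233) held 2.53 to 4.91 normalized reads in αTC1 and 11.8 to 17.4 in βTC6 (log2 fold change 1.87, SE 0.19, adjusted p = 3.06e-08). None of these groups overlapped.

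At Cacna1h the αTC1 libraries had 0 RNA counts but at least 18 reads in the start-site peak, so reads were fewer there and not absent. All 3 peaks of Cacna1h passed towards βTC6, at log2 fold changes of 1.59 to 1.87, and none was called. Cacna1i had no peak under 2 kb from its start site. Its nearest peak was 76781 bases into the gene, in an intron (chr15:80194305-80194593), and held 5.74 to 10.1 normalized reads in αTC1 and 1.03 to 2.70 in βTC6 (log2 fold change -1.63, SE 0.23, adjusted p = 2.36e-06). Its other peak had a log2 fold change of -0.84.

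All 6 peaks of Cacna1c were more open in αTC1, the direction of its RNA. The strongest by log2 fold change, though not by moderated t, was in an intron 56168 bases from the start site (chr6:119001807-119002271). It held 8.19 ± 2.19 normalized reads in αTC1 and 0.838 ± 0.604 in βTC6 (SD, n = 5; log2 fold change -2.35, SE 0.25, adjusted p = 4.07e-08). With the median of the chromosome 6 peaks subtracted it was at -1.56, no longer past 2, and the 2 peaks nearest to the start site were above 0, at 0.29 and 0.20. The peak nearest to the start site had a log2 fold change of -0.50 (SE 0.21, adjusted p = 0.0394), less than the median of -0.79 over all peaks of chromosome 6. It did not pass when αTC1 replicate 1, 2, 3 or 4 or βTC6 replicate 2, 4 or 5 was left out (adjusted p from 0.0551 to 0.119), nor within replicates 1 to 3 (0.0725) or replicates 4 and 5 (0.361) alone. At Cacna1d 5 of 6 peaks were more open in βTC6, but with the chromosome 14 median of 1.54 subtracted 4 of these 5 were below 0, from -0.75 to -0.11. The start-site peak, at 0.78 (SE 0.24) before subtraction, did not pass under quantile normalization (0.22, adjusted p = 0.412) or in replicates 4 and 5 alone (0.77, adjusted p = 0.139).

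**Figure D3:**
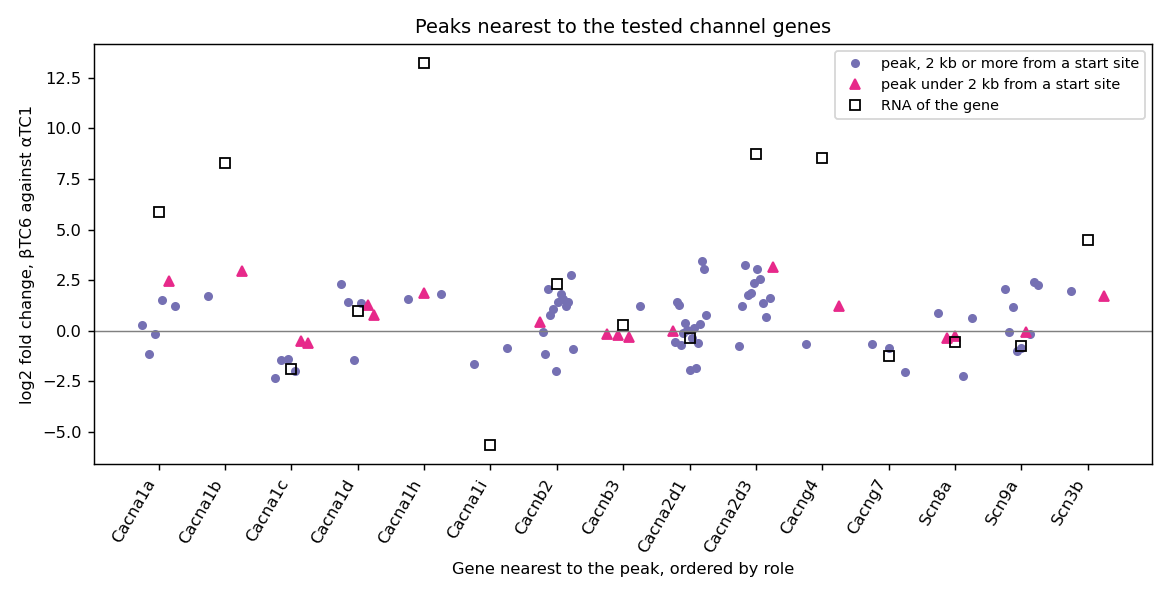
Log2 fold change of βTC6 against αTC1 for each peak nearest to a plotted channel gene (circles, or triangles under 2 kb from a start site) and for the RNA of that gene (open squares), with genes ordered by role. Cacna1c, Cacna1i and Cacng7 had every peak and the RNA below 0, Cacna1b, Cacna1h and Scn3b had every peak and the RNA above 0, and Scn9a and Cacna2d1 had RNA below 0 with some distal peaks above 2.

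At Cacna2d3 5 of 12 peaks were called in βTC6 and 11 were more open there. Over the whole of chromosome 14, 1004 of 2830 peaks were called in βTC6 and 2424 were more open there. With the median of the chromosome's peaks subtracted the 5 called peaks were at 0.83 to 1.74, all below 2. Its start-site peak (chr14:30534616-30536273) held 0.955 to 2.38 normalized reads in αTC1 and 18.4 to 21.8 in βTC6 (log2 fold change 3.13, SE 0.20, adjusted p = 2.58e-11), or 1.60 above the chromosome median. Within 200 kb of the gene, 4 of 20 peaks were at 3 or fewer reads in every αTC1 library, and 1 in every βTC6 library. The strongest peak of the gene by moderated t lay in an intron 256411 bases from the start site (chr14:30278018-30279259, log2 fold change 3.27, SE 0.17). Another intron peak, 158794 bases from the start site (chr14:30375941-30376570), held 0.983 to 2.18 normalized reads in αTC1 and 17.2 to 26.7 in βTC6 (log2 fold change 3.06, SE 0.20, adjusted p = 3.78e-11), or 1.52 above the chromosome median.

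Cacna2d1, whose RNA differed little, had a start-site peak that did not pass the test and distal peaks that did. Its start-site peak (chr5:15439571-15441844) held 90.7 ± 16.1 normalized reads in αTC1 and 88.7 ± 7.71 in βTC6 (SD, n = 5; log2 fold change -0.01, SE 0.11, adjusted p = 0.917). This peak passed towards αTC1 with the chromosome median subtracted (-0.32, adjusted p = 0.0163) and towards βTC6 under quantile normalization (0.47, adjusted p = 0.00199). An intron peak 231913 bases away (chr5:15671938-15672906) held 0.722 to 1.83 in αTC1 and 14.6 to 30.2 in βTC6 (log2 fold change 3.44, SE 0.22, adjusted p = 3.54e-11), the highest log2 fold change among the 151 peaks in the main fit. With chromosome medians subtracted it was at 3.13, below a peak of Scn7a at 3.56. Of the 17 peaks of Cacna2d1, 6 passed towards βTC6 and 5 towards αTC1, not above the shares over all peaks (39.9% and 38.1%).

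Scn9a was similar. Its start-site peak held 40.9 ± 4.64 and 39.0 ± 2.24 normalized reads (log2 fold change -0.06, SE 0.10, adjusted p = 0.557), and of its 9 peaks 4 passed towards βTC6 and 2 towards αTC1, the line with more of its RNA. Over all peaks 39.9% passed towards βTC6, 38.1% towards αTC1 and 12.9% were called in βTC6. The 3 called peaks of Scn9a were all in βTC6 (2.09, 2.26 and 2.42 on the log2 fold change scale). The 2 towards αTC1 averaged 67.6 and 33.3 normalized reads (log2 fold change -1.02, SE 0.12) and, 2148 bases from the start site, 25.6 and 14.1 (-0.83, SE 0.11). Cacnb3 had 3 start-site peaks that did not pass, with log2 fold changes of -0.15, -0.19 and -0.29. The peak nearest to an Scn8a start site of the deposited annotation (chr15:100700608-100701217, intergenic by the gene positions used here) had a log2 fold change of -0.33 (SE 0.16, adjusted p = 0.0698). The RNA log2 fold changes of these 3 genes were also small, from -0.75 to 0.28.

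Scn3b followed its RNA, with a start-site peak (chr9:40076457-40077753) at 9.38 to 12.7 normalized reads in αTC1 and 35.4 to 41.2 in βTC6 (log2 fold change 1.74, SE 0.11, adjusted p = 3.78e-11). The peak nearest to Cacng7, at -2863 bases from an annotated start site, had a log2 fold change of -2.03 (SE 0.29, adjusted p = 3.14e-06), on a chromosome (7) whose peaks had a median of -0.57. The Cacnb2 start-site peak had 0.46 (SE 0.11) and that of Cacng4 1.23 (SE 0.21), both more open in βTC6. Cacnb1 and Cacng8 had no peak that was nearest to them.

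Several of the strongest peaks lay at channel genes with little or no RNA. The largest difference in αTC1 was an intron peak of Scn10a (chr9:119562680-119563278, Nav1.8), a pore of sensory neurons, at 26.9, 25.4, 29.5, 21.4 and 30.0 normalized reads in αTC1 and 0.426, 0.205, 1.08, 0.143 and 0.282 in βTC6 (log2 fold change -4.30, SE 0.21, adjusted p = 8.89e-13). Scn10a itself had 0, 1 and 3 counts in αTC1.

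Cacna2d2, at or under 0.14 FPKM, had both of its peaks called in αTC1, in an intron (chr9:107358770-107359618 at -2.75, SE 0.21, and chr9:107355403-107355907 at -2.38, SE 0.23). RNA of Cacna2d2 leaned the other way, at or under 0.01 FPKM in αTC1 and 0.05 to 0.14 in βTC6. Without the expression filter it did not pass (edgeR, log2 fold change 2.31, SE 1.03, adjusted p = 0.0738). In βTC6 a peak was called at Scn7a (log2 fold change 3.39, SE 0.22), which had 0 to 2 counts per library. Cacnb4, low in both lines, had a peak at 4.20 to 7.02 normalized reads in αTC1 and 33.5 to 42.5 in βTC6 (chr2:52448433-52449130, log2 fold change 2.59, SE 0.14, adjusted p = 2.41e-12). Its RNA was higher in βTC6 too when the expression filter was left out (log2 fold change 3.13, SE 0.45, adjusted p = 5.29e-05). A peak at -26412 bases from another annotated Scn8a start site (chr15:100739988-100740591) was called in αTC1 (log2 fold change -2.25, SE 0.23). Nearest-gene assignment goes by start-site distance, and a peak may act on another gene.

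**Figure D4:**
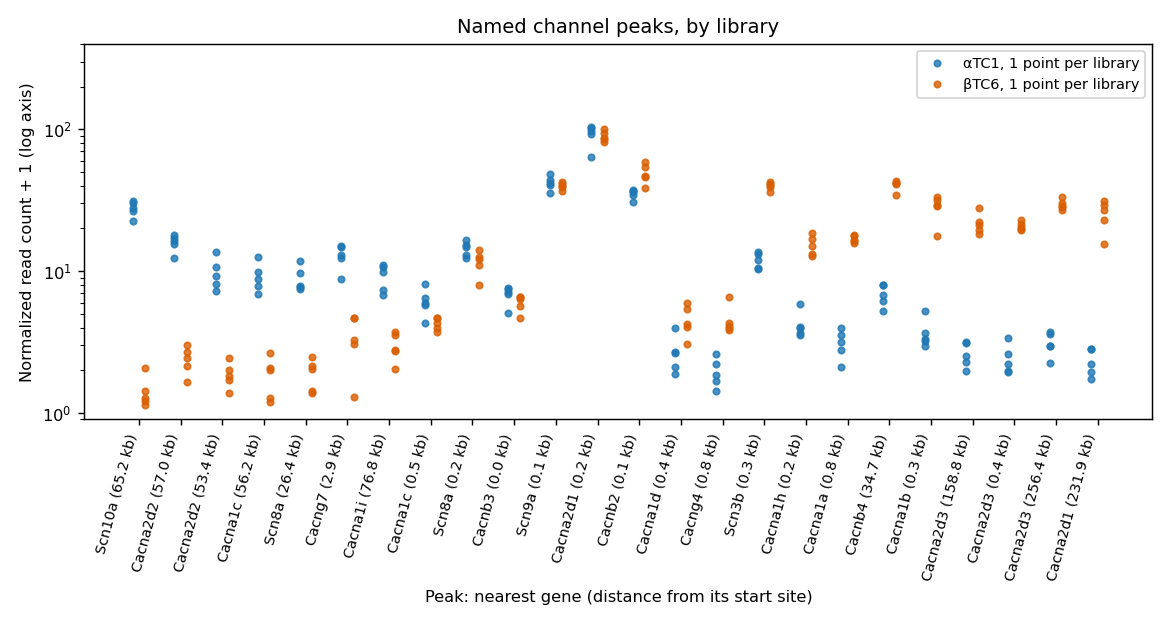
Normalized read count + 1 on a log axis for 24 channel peaks in the 5 αTC1 and 5 βTC6 libraries, ordered by log2 fold change, with each peak's distance from the start site of its gene in kb; each point is a library. The Scn10a intron peak at the left averaged 26.6 normalized reads in αTC1 and 0.427 in βTC6, the start-site peaks of Scn9a and Cacna2d1 overlap, and the Cacna2d1 intron peak at the right averaged 1.31 and 24.2.

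The mixtures did not enter the test that called the DA peaks, but they are blends of the same lines. Peaks chosen for a difference between the pure lines are bound to change with the percentage. The correlations below therefore describe the mixing and are no independent support for the calls. The mean over the 21 peaks called in βTC6 was 1.69 ± 0.163 normalized reads in pure αTC1 and 16.8 ± 0.978 in pure βTC6 (SD, n = 5). It was 2.63 with 10% βTC6 cells, 7.47 with 50% and 13.6 with 90%, in the order of the βTC6 percentage throughout. Pearson's r with the βTC6 percentage was 0.987 and Spearman's rho 1.0 over the 9 mixtures (exact permutation p = 5.51e-06 for each, the smallest that permutations can give, adjusted p over 2 relations 5.51e-06), and r was 0.992 without the 2 outermost mixtures. In all 9 mixtures the value was below the straight line between the pure lines, as for 7.47 against 9.26 at 50%.

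The 7 peaks called in αTC1 averaged 12.9 ± 0.765 normalized reads in pure αTC1 and 1.30 ± 0.456 in pure βTC6. Their mean was 3.02 with 10% αTC1 cells, 8.08 with 50% and 13.2 with 90%. It too rose with the αTC1 percentage in every step (r = 0.983, rho 1.0, exact permutation p = 5.51e-06 for each, adjusted p 5.51e-06), with r = 0.966 without the 2 outermost mixtures. These values were above the straight line in all 9 mixtures. Both departures go towards αTC1. Each mixture was a single library, so a departure has no replicate error of its own.

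**Figure D5:**
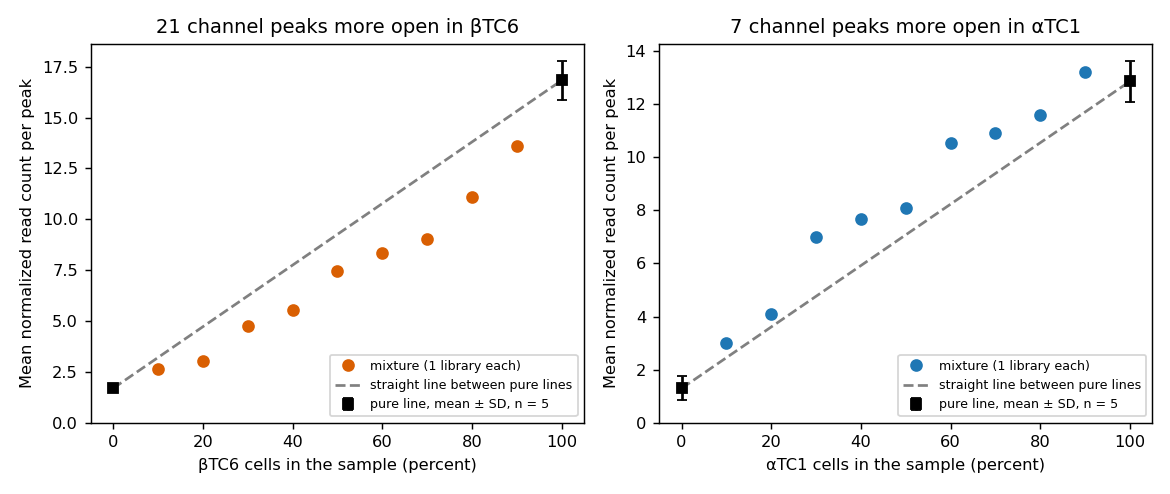
Mean normalized read count per peak over the 21 channel peaks called in βTC6 (left) and the 7 called in αTC1 (right) against the percentage of that line's cells; circles are the 9 single mixture libraries, squares the pure lines (mean ± SD, n = 5) and the dashed line joins the pure lines. The left values stay below the dashed line and the right values above it.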

How the data were processed

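The study profiled αTC1 and βTC6 cells and mixtures by ATAC-seq and RNA-seq. For RNA-seq the authors deposited expected counts and FPKM values, from Trim Galore, Bowtie2 and RSEM 1.2.12 on mm9 Ensembl transcripts, with spike-ins added (92 rows, 0.436% to 0.971% of counts per library) and left out of library sizes and tests here. Library preparation was stranded, but RSEM was run with its default settings, which do not use strand, so reads of genes that overlap on opposite strands cannot be told apart. For ATAC-seq they deposited a signal per consensus peak, which is a read count scaled by the authors with TMM (Trimmomatic 0.32, BWA 0.7.9a, Picard 1.95, MACS2 2.1.0 per library, DiffBind 2.2.5; nearest genes by HOMER 4.6; versions per the submitters' processing notes). In every library 100.0% of the values were whole multiples of its lowest value (tolerance 0.01), which gave back reads. Columns of the authors' own peak calls were not used, and 0 value columns lacked a sample.

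Genes reaching an FPKM of 1 in every library of either line were tested with edgeR 4.0.16 (quasi-likelihood test, TMM, expected counts rounded to whole numbers) and peaks with limma 3.58.1 (lmFit, eBayes with trend) on log2(normalized read count + 1), in R 4.3.3, each over the whole table with Benjamini-Hochberg adjustment. A gene's SE is the absolute log2 fold change over the square root of edgeR's F. The study scaled genes by spike-ins with a package that was not used here, so TMM is the main scaling. Both scripts were tested on simulated data. DESeq2 1.42.0, other scalings, filters and pseudocounts, a replicate block and leaving out each library were alternatives. Peak windows were read from the mm9 genome. Start coordinates are printed as in the peak table, whose first-base convention is not stated. Gene positions came from GENCODE on mm9. The floor was 3 counts per library, and 95% intervals cover counting error only. Other steps used Python 3.11.15, pandas 2.3.3 and scipy 1.17.1.

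Members and lists were chosen with earlier results of these data known. Named were all members that passed the filter, each one's peak nearest to a start site and the 5 called peaks with the largest moderated t in each direction. The other peaks of Scn7a and Scn9a, and of Cacnb3 and Cacna1h, were named after their values were seen. Values of some genes that enter the counts are not reported here.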

Additional observations from a re-analysis of the deposited data

Results flagged for a closer look

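In groups of 5 libraries, 50 sets of values (25 peaks in 2 lines) were examined for a library far from the others, and 5 had one (a gap of over 0.71 of the group's range). Chance flags about 1 in 20 groups. In αTC1 replicate 5 the Cacna1h start-site peak was high, at 4.91 normalized reads against 2.53 to 3.01 in the other 4 libraries, the Cacna2d1 start-site peak was low, at 63.0 against 91.3 to 103, and the Cacnb3 start-site peak was low, at 4.04 against 5.88 to 6.55. In βTC6 replicate 3 the Cacnb4 peak was low, at 33.5 against 40.1 to 42.5. In βTC6 replicate 1 the Cacng4 start-site peak was high, at 5.54 against 2.84 to 3.28. Without αTC1 replicate 5 the channel peaks more open in βTC6 and αTC1 numbered 74 and 47. The cause of these values was not tested.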

How the results depend on the processing

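Among 170 alternative values of the counts, mixture correlations and L and T shares, 152 stayed within 1.5 times the main count, or within the replicate spread for a share, or kept the sign for a correlation. Without the expression filter 18 channel genes were higher in βTC6, with 15 called there and 2 in αTC1, and 12 partners were higher in βTC6. Spike-in scaling left 3 channel genes and 4 partners higher in αTC1. Without chromosome 14, an alternative chosen after seeing the data, 3 partners were higher in βTC6. With a filter of 10 normalized reads 38 and 25 channel peaks were more open in βTC6 and αTC1 of 72 tested, with 4 called in αTC1. Called peaks numbered 5 in βTC6 and 1 in αTC1 with a pseudocount of 5, 11 in αTC1 with 0.5, 38 and 13 by edgeR on recovered reads, and 13 in αTC1 under quantile normalization or in replicates 4 and 5 alone. From counts not divided by length the βTC6 L-type share was 52.6%. Shares over all genes or peaks under these alternatives are not given, so the counts show only how the members moved. Except where an alternative's construction changes what is counted, the cause of a move was not tested.

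Signs turned for 4 start-site peaks. With chromosome medians subtracted Cacna1c was 0.29, Cacna1d -0.75 and Scn9a 0.10 (log2 fold change), and under quantile normalization Scn9a was 0.30 and Cacna2d1 0.47. In replicates 4 and 5 alone Scn9a was 0.02 and Cacna2d1 0.08, and leaving out 1 library at a time gave Cacna2d1 values from -0.14 to 0.03. Leaving out each library gave 9 to 11 and 6 to 7 channel genes, 73 to 74 and 44 to 47 channel peaks, and 20 to 23 and 5 to 10 called peaks in βTC6 and αTC1, with called genes kept at 8 and 1. Same-numbered RNA libraries deviated together with correlations from -0.0338 to 0.0176, and ATAC-seq ones from -0.0019 to 0.069, so numbers do not pair libraries. With the replicate block the counts were 11 and 7 genes and 74 and 48 peaks. Depth limits what can be said of channel genes under 1 FPKM.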
